A study of Homo sapiens with 18 samples.

Results

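The genes described here are 52 genes of mitosis out of 17026 endogenous genes in the deposited table. They were chosen by name and for their known roles, with earlier results of these data known. All 52 were found in the table and all 52 passed the filter on low values that left 15354 genes for testing. They were measured by stranded mRNA sequencing in 3 human pancreatic ductal adenocarcinoma cell lines. The 6 groups were BxPC3, MiaPaCa2 and PANC1 cells given THZ1 at 100 nM for 6 h, and the same 3 lines given the solvent DMSO for 6 h, with 3 libraries in each group, described by the submitters as biological triplicates. Each line is a single tumour-derived line, so differences between lines are differences between these 3 cultures. All cells shared one F12-based growth medium with serum, β-glycerophosphate and ascorbic acid, in DMSO and THZ1 wells alike. ERCC spike-in RNAs, synthetic transcripts of known amount, were added to the extracted RNA of every library per the labels' protocols. Whether their amount was set per cell or per amount of RNA is not given in the sources used here.

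Mitosis is driven by CDK1 bound to A-type and B-type cyclins, together with the Polo and Aurora kinases. These enzymes direct chromosome condensation, spindle assembly and attachment of chromosomes to the spindle at the kinetochore. The spindle checkpoint holds back the anaphase-promoting complex until attachment is complete, after which separase cuts cohesin and the cell divides. Most genes for these proteins are transcribed in G2 and M phase through promoter elements called the cell cycle genes homology region (CHR) and the CCAAT box, which bind the MuvB complex with B-MYB and FOXM1, and NF-Y. THZ1 is a covalent inhibitor of CDK7, a kinase of the general transcription machinery, and it also acts on CDK12 and CDK13. Because whole cultures were measured, fewer cells in mitosis and less mRNA per cell cannot be told apart.

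Libraries held 6352482 to 20910423 recovered reads, and the PANC1 DMSO replicate 1 library was the shallowest. It also stood apart from the other 2 PANC1 DMSO libraries, with a correlation of 0.940 to its group and a residual SD of 0.519 log2 units over all genes, against 0.103 to 0.309 in the other 17 libraries. Values below are the deposited values times 17.7, a constant that brings the average library to a sum of 1000000, and are called units. Deposited values were not proportional to library depth: 1 unit stood for 12.2 to 12.8 reads in BxPC3 THZ1 libraries and for 16.4 to 21.1 reads in BxPC3 DMSO libraries of similar depth. The keratins KRT8, KRT18 and KRT19 were measured in every group, whereas KRT7 and CDH1, also used as ductal epithelial markers, averaged 1976 and 298 units in BxPC3 DMSO and no more than 4.20 units in the DMSO groups of MiaPaCa2 and PANC1. Summed over the 4 of 6 fibroblast markers in the table, PANC1 DMSO replicate 1 had 66.5 units and the other 5 PANC1 libraries 22.9 to 30.4 units. Its VWF, the only 1 of 4 endothelial markers in the table, was at 6.79 units against 0.204 to 0.636 units. The smallest recovered count in the table is 1, so absent markers have no value here. Mitochondrial mRNA made up 1.95% of endogenous reads in PANC1 DMSO replicate 1, against 4.04% and 4.05% in the other PANC1 DMSO libraries. The part of these values in the PANC1 results was not tested.

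Promoters carry the elements by which mitosis genes are known to be co-regulated, so those of 8 members with contrasting responses are shown first. RefSeq lists a promoter, defined as 250 bases before to 50 bases after the annotated start, for 45 of the 52 members on GRCh38.p14, in 57 entries. The stretches printed are the 120 bases just upstream of the start, 5′ to 3′ on the strand of the gene, and capitals mark each match to a CHR letter string or a CCAAT box on either strand. KIF18B (chr17:44947774-44947893, minus strand), CCNF (chr16:2429327-2429446, plus strand), ASPM (chr1:197146670-197146789, minus strand) and CENPI (chrX:101100938-101101057, plus strand) are genes whose mRNA fell in both BxPC3 and MiaPaCa2. CCNB1 (chr5:69167030-69167149, plus strand) fell in BxPC3 and was not called in the other lines. CCNB2 (chr15:59105026-59105145, plus strand), PTTG1 (chr5:160421735-160421854, plus strand) and PRC1 (chr15:90994536-90994655, minus strand) had values that were higher with THZ1 on the deposited scale.
KIF18B: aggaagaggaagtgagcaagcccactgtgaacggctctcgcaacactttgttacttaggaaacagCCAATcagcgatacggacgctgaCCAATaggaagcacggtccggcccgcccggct
CCNF: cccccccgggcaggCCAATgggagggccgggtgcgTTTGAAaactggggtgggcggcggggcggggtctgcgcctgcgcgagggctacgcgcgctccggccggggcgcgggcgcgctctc
ASPM: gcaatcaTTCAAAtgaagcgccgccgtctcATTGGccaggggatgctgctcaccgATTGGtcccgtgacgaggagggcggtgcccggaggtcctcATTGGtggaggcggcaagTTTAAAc
CENPI: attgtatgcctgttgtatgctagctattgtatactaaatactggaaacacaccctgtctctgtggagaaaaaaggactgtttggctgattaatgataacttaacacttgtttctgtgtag
CCNB1: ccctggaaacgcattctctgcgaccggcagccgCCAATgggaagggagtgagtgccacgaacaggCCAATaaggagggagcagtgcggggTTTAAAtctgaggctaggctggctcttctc
CCNB2: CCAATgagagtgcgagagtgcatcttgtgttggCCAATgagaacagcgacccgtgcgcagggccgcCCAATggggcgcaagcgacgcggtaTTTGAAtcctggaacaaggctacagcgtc
PTTG1: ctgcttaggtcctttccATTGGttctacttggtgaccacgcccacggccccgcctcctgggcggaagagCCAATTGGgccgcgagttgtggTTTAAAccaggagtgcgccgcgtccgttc
PRC1: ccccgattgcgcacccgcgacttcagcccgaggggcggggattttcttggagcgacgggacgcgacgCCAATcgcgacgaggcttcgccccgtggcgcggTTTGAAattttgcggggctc
All of these stretches other than that of CENPI hold at least 1 CCAAT box, and the falling ASPM and the non-falling CCNB2 each carry 3 of them beside a CHR string. The adjacent CCAAT boxes of PTTG1 lie on opposite strands and overlap by 2 bases. KIF18B has its CHR string just downstream of the start, outside the printed stretch. Whether the start listed for CENPI is the one used in these cells was not tested, so its stretch may not be the promoter in use.

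Over the full 300-base windows, the CHR was searched as TTTGAA and TTTAAA, the NF-Y box as CCAAT, and E2F sites as TTCCCGC and TTGGCGC, each on both strands. At least 1 CHR string was found for 40 of the 45 members (88.9%), compared with 21.0% of the 9474 tested genes that have a listed promoter and 24.0% of all 35116 promoters in the RefSeq table. A CCAAT box was found for 80.0% of members, against 42.9% of tested genes and 34.6% of all promoters. Both together were found for 68.9% of members, against 8.95% of tested genes and 9.27% of all promoters. An E2F string was found for 22.2% of members, against 1704 of the 9474 tested genes and 9.23% of all promoters. The median log2 fold change in BxPC3 was -0.51 for the 40 genes with a CHR string and -0.63 for the 5 without, and in MiaPaCa2 it was -0.05 and 0.05. CENPI, whose listed start was not checked in these cells, was among the 5. A string match is a description of the sequence and does not show that a factor binds there.

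**Figure D1:**
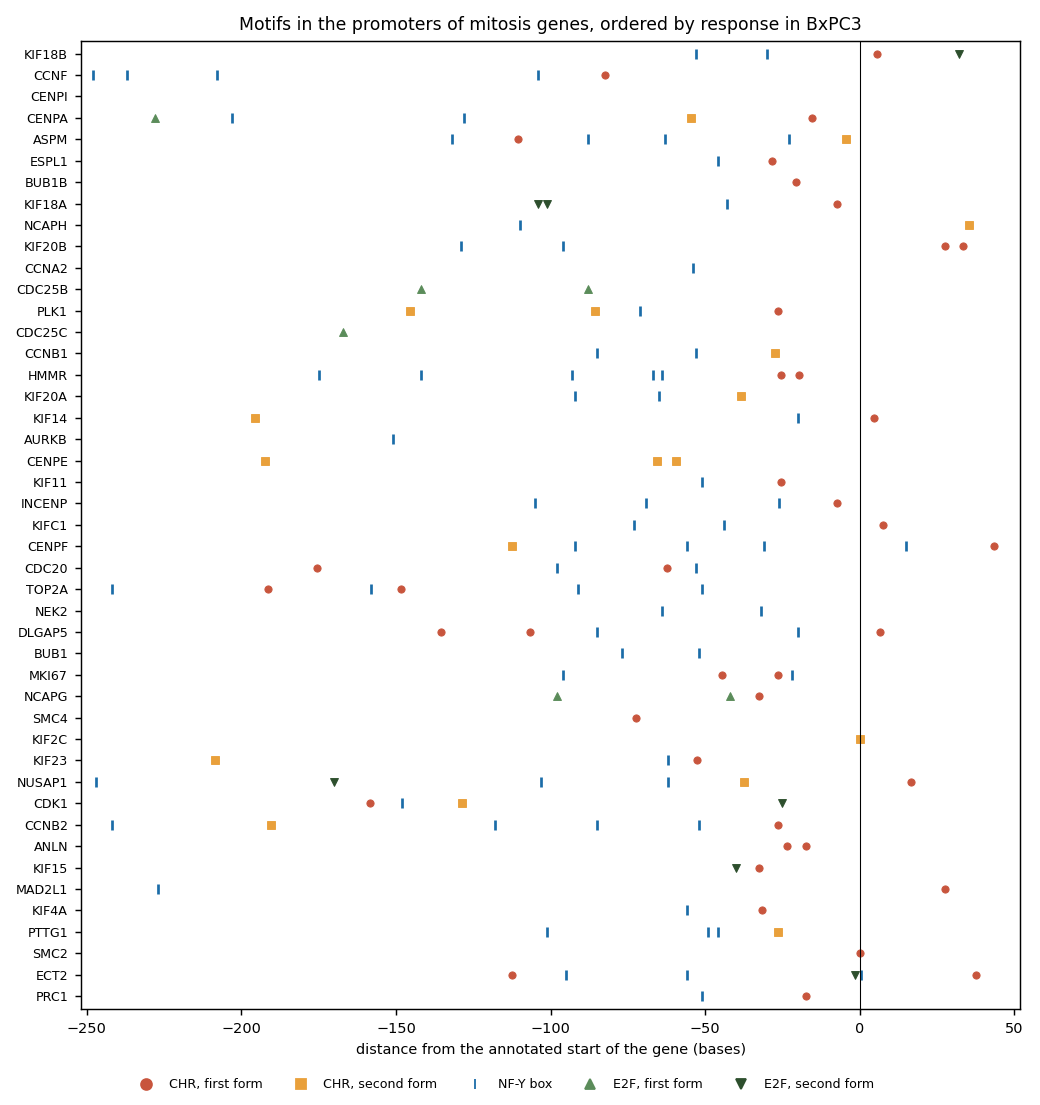
Positions of motif matches in the first listed RefSeq promoter of each of the 45 members with one, from 250 bases before to 50 after the annotated start (x axis, bases); genes run from the lowest to the highest THZ1 response in BxPC3. Circles and squares mark the 2 CHR strings, bars the CCAAT (NF-Y) box and triangles the 2 E2F strings; boxes and CHR strings lie along the whole order and not at one end of it.

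A large share of the mitosis genes was lower with THZ1 in BxPC3. On the deposited scale 29 of the 52 members fell and 9 were called higher, by limma with Benjamini-Hochberg adjusted p below 0.05 over all 15354 genes tested, whereas 18.9% of all tested genes were called lower and 40.0% higher. The largest falls were in KIF18B, CCNF, AURKA, CENPI, CENPA and ASPM, and 13 members fell by at least 2-fold. The members' median log2 fold change was -0.48, and that of all genes 0.25. The 3 THZ1 libraries lay wholly below the 3 DMSO libraries for 32 members and wholly above them for 16, against 25.0% and 51.1% of all tested genes. The 9 called higher did not keep that call with equal ERCC totals, equal sums, TMM or DESeq2 factors.

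Other genes moved with treatment in the same libraries. Summed ductal epithelial markers were at 8586 to 8978 units in BxPC3 THZ1 libraries and 4472 to 4845 units in BxPC3 DMSO libraries, with 6 of 7 tested markers called higher on the deposited scale. With equal ERCC totals 0 were called higher and 2 lower, against 1.28% and 59.1% of all tested genes. In MiaPaCa2 the same markers were at 3674 to 4007 units with THZ1 and 1788 to 1898 units with DMSO, with 4 of 7 called higher on the deposited scale. With equal ERCC totals 0 were called higher and 4 lower there, against 1.36% and 73.9% of all tested genes. Summed fibroblast markers were at 339 to 342 units with THZ1 and 169 to 173 units with DMSO in MiaPaCa2. Of 3 tested, 2 were called higher there on the deposited scale, and with equal ERCC totals 0 were called higher or lower. In BxPC3 the sums were at 14.4 to 19.2 units with THZ1 and 10.05 to 10.7 units with DMSO. There 0 were called on the deposited scale, and 1 was called lower with equal ERCC totals. Mitochondrial mRNA made up 7.15% to 7.22% of endogenous reads in BxPC3 THZ1 libraries and 4.79% to 4.90% in DMSO libraries, and 6.48% to 6.95% with THZ1 and 4.51% to 4.73% with DMSO in MiaPaCa2. The part of these shifts in the values of the mitosis genes was not tested.

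KIF18B, a kinesin that shortens astral microtubules, had 14.8, 13.2 and 16.4 units in BxPC3 THZ1 libraries, against 79.1, 77.5 and 80.4 units in BxPC3 DMSO libraries. The groups were far apart and each was tight, and the log2 fold change was -2.34 (SE 0.16, adjusted p = 4.56e-09, limma). CCNF, the F-box cyclin that directs ubiquitination of ribonucleotide reductase and other proteins in G2, had 19.5, 20.6 and 22.5 units with THZ1 and 105, 103 and 107 units with DMSO. Its log2 fold change was -2.28 (SE 0.20, adjusted p = 5.93e-08, limma), and its groups did not overlap.

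**Figure D2:**
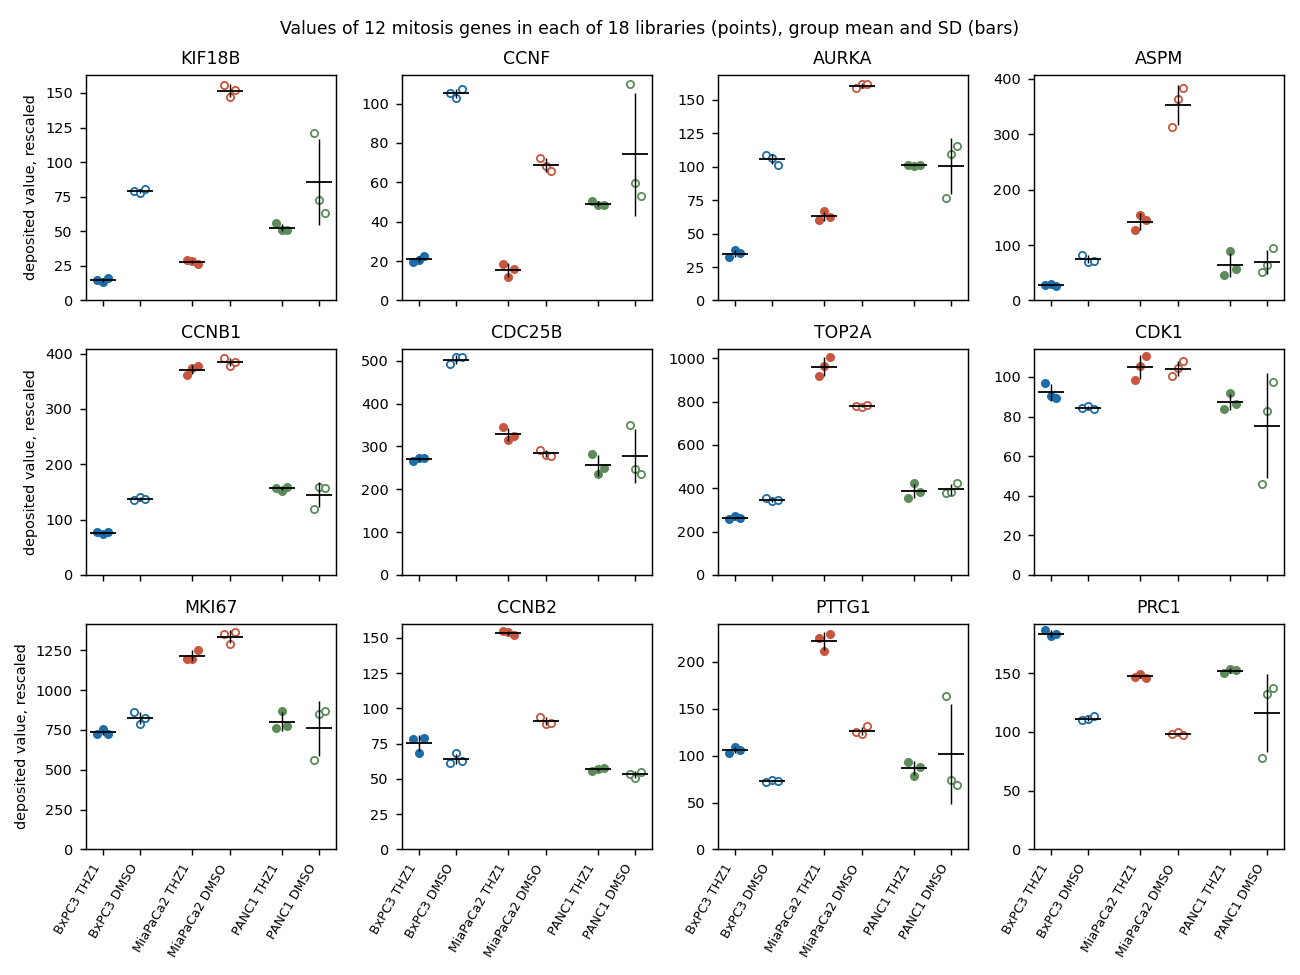
Value of 12 mitosis genes (y axis, rescaled deposited units, from 0) in each of the 18 libraries (points; THZ1 filled, DMSO open) with the mean and SD of each group of 3 (bars). KIF18B, CCNF, AURKA and ASPM are separated by treatment in BxPC3 and MiaPaCa2, whereas in PANC1 AURKA and ASPM overlap and DMSO replicate 1 lies away from the other DMSO libraries in KIF18B, CCNF, PTTG1 and PRC1.

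Among the cyclins, CDK1 and its phosphatases, 5 of 7 fell in BxPC3 and 1 was called higher. CCNB1, the main cyclin partner of CDK1 in mitosis, had 77.3, 74.6 and 76.9 units with THZ1 and 136, 141 and 137 units with DMSO, without overlap (log2 fold change -0.85, SE 0.09, adjusted p = 5.24e-07, limma). Its relative CCNB2 went the other way on the deposited scale, at 78.6, 68.6 and 79.0 units with THZ1 and 61.6, 68.0 and 62.8 units with DMSO (log2 fold change 0.23, adjusted p = 0.0128, limma), but its sign turned to -0.09 with TMM factors, -0.49 with equal library sums and -0.94 with equal ERCC totals. CDC25B, a phosphatase that activates CDK1 at entry into mitosis, had 266, 273 and 272 units with THZ1 and 492, 509 and 508 units with DMSO, a log2 fold change of -0.89 (SE 0.11, adjusted p = 4.60e-06, limma). CDC25C, of the same family, and CCNA2, the cyclin of S phase and G2, fell by 0.85 and 1.01 on the log2 scale. CDK1 itself was not called, with 97.1, 90.1 and 89.2 units in THZ1 libraries and 84.3, 85.4 and 83.9 units in DMSO libraries (log2 fold change 0.12, SE 0.17, adjusted p = 0.572, limma). The sign of CDK1, like that of CCNB2, was negative with equal sums and equal ERCC totals. Thus on the deposited scale CCNB1 fell, CCNB2 was called higher and CDK1 was not called, and differences between these genes were not tested.

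All 4 mitotic kinases fell in BxPC3. AURKA, which matures centrosomes and builds the spindle, had 32.2, 37.5 and 35.4 units with THZ1 and 109, 107 and 101 units with DMSO (log2 fold change -1.57, SE 0.12, adjusted p = 1.02e-08, limma). PLK1, the Polo kinase needed at nearly every step of mitosis, had 84.3, 86.8 and 87.3 units with THZ1 and 154, 157 and 160 units with DMSO (log2 fold change -0.86, SE 0.09, adjusted p = 3.25e-07, limma). Neither gene's groups overlapped. TTK, the kinase that starts checkpoint signalling at kinetochores, fell by 1.08 on the log2 scale, and NEK2, a kinase of centrosome separation, by 0.38. In the chromosomal passenger complex, which corrects wrong spindle attachments, the kinase AURKB fell by 0.63 and its scaffold INCENP by 0.55. The third subunit, BIRC5 or survivin, had 33.1, 38.5 and 37.5 units with THZ1 and 22.1, 25.5 and 24.5 units with DMSO, higher on the deposited scale (log2 fold change 0.58, adjusted p = 0.0109, limma) and of opposite sign with equal library sums (-0.13) and ERCC totals (-0.57).

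In the spindle checkpoint, 1 of 4 members fell in BxPC3, the checkpoint pseudokinase BUB1B at -1.20 (adjusted p = 1.65e-04, limma). Its partner BUB3 was called higher at 0.42 on the deposited scale, with -0.31 at equal sums and -0.77 at equal ERCC totals. Of the 4 genes that act with the anaphase-promoting complex, ESPL1 (separase, the protease that cuts cohesin) had 37.2, 35.9 and 38.6 units with THZ1 and 84.8, 87.9 and 87.4 units with DMSO. The groups did not overlap, and its log2 fold change was -1.20 (SE 0.08, adjusted p = 3.46e-09, limma). The securin PTTG1, which keeps separase inactive, had 103, 110 and 106 units with THZ1 and 72.4, 74.3 and 72.7 units with DMSO, a log2 fold change of 0.53 (SE 0.21, adjusted p = 0.0386, limma) on the deposited scale but -0.19 at equal sums and -0.65 at equal ERCC totals. PTTG1 is known to have near-identical copies in the genome, and how reads matching several places were counted was not given, so its count is uncertain. CDC20, the activator that turns the complex on at anaphase, fell by 0.45.

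All 4 centromere and kinetochore genes fell in BxPC3. CENPI, a member of the constitutive centromere network, had 8.65, 7.48 and 8.40 units with THZ1 and 24.9, 25.8 and 23.7 units with DMSO (log2 fold change -1.49, SE 0.16, adjusted p = 5.24e-07, limma). CENPA, the histone H3 variant that marks centromeres, had 5.06, 6.41 and 7.10 units with THZ1 and 19.7, 19.0 and 18.1 units with DMSO (log2 fold change -1.48, SE 0.10, adjusted p = 5.14e-09, limma). THZ1 libraries of both genes were all below the DMSO libraries. The kinetochore kinesin CENPE fell by 0.62 and the large kinetochore protein CENPF by 0.51.

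Among the 11 kinesins, 7 fell in BxPC3 and 2 were called higher. Beside KIF18B, its paralogue KIF18A, which dampens chromosome movement, fell by 1.18 and KIF20B, of cytokinesis, by 1.15. KIF20A fell by 0.70, KIF14 by 0.69, the spindle motor KIF11 by 0.55 and the minus-end motor KIFC1 by 0.52. KIF15 and the chromokinesin KIF4A were called higher at 0.30 and 0.37 on the deposited scale, and had -0.41 and -0.35 at equal sums and -0.85 and -0.81 at equal ERCC totals. KIF4A is known to have a near-identical copy in the genome, and its count is uncertain for the same reason.

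Of the 8 genes of spindle assembly and cytokinesis, 2 fell in BxPC3, and they were ASPM and HMMR. ASPM, which focuses spindle poles, had 27.9, 30.0 and 25.3 units with THZ1 and 82.9, 70.1 and 71.6 units with DMSO, without overlap (log2 fold change -1.40, SE 0.21, adjusted p = 2.75e-05, limma). HMMR, a spindle-associated hyaluronan receptor, fell by 0.74. PRC1, the bundler of midzone microtubules, had 187, 181 and 183 units with THZ1 and 110, 111 and 113 units with DMSO, the highest deposited-scale response of the called members (log2 fold change 0.72, SE 0.14, adjusted p = 3.93e-04, limma), but -0.01 at equal sums and -0.47 at equal ERCC totals. TPX2, which activates AURKA on the spindle, was called higher at 0.23 on the deposited scale, with -0.09 from TMM factors, -0.50 at equal sums and -0.96 at equal ERCC totals.

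In the chromosome structure group, 2 of 6 fell in BxPC3. NCAPH, the kleisin of condensin I, had 21.0, 20.7 and 18.2 units with THZ1 and 46.2, 46.7 and 45.0 units with DMSO (log2 fold change -1.17, SE 0.09, adjusted p = 1.44e-08, limma). TOP2A, the topoisomerase that untangles sister chromatids, had 261, 271 and 262 units with THZ1 and 355, 341 and 344 units with DMSO (log2 fold change -0.39, SE 0.07, adjusted p = 2.30e-04, limma). SMC2, the condensin ATPase that pairs with SMC4, had 113, 124 and 110 units with THZ1 and 80.6, 74.1 and 75.7 units with DMSO, at 0.58 on the deposited scale (adjusted p = 2.98e-04, limma), -0.14 at equal sums and -0.60 at equal ERCC totals. So subunits of the same condensin complex lay on opposite sides of 0 on the deposited scale and, on the ERCC scale, differed in size with the same sign. MKI67, the proliferation marker that coats mitotic chromosomes, had 724, 754 and 726 units with THZ1 and 864, 787 and 825 units with DMSO and was not called (log2 fold change -0.17, SE 0.12, adjusted p = 0.256, limma). FOXM1, the transcription factor of these genes, was not called either, with 145, 138 and 145 units in THZ1 libraries and 123, 129 and 125 units in DMSO libraries (log2 fold change 0.19, SE 0.11, adjusted p = 0.150, limma).

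**Figure D3:**
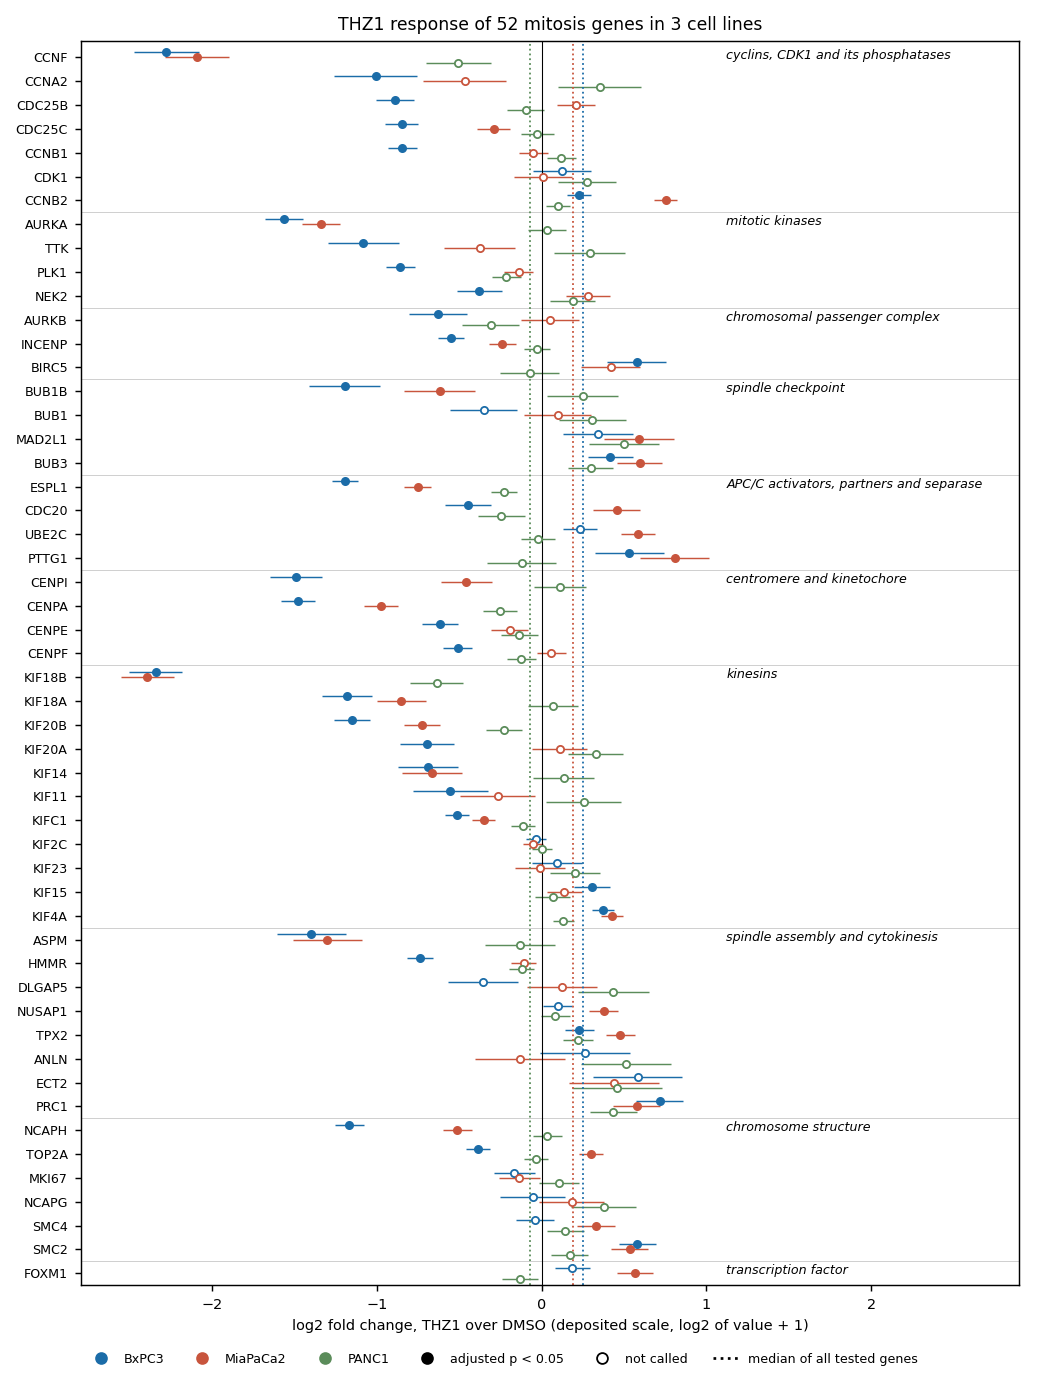
Log2 fold change of THZ1 over DMSO (x axis, deposited scale) of the 52 members, by role, in each line; points are estimates, bars 1 SE, filled points adjusted p below 0.05 and dotted lines the median of all tested genes. Every gene with a filled MiaPaCa2 point left of 0 also has a filled BxPC3 point left of 0, and PANC1 has no filled point.

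In MiaPaCa2 fewer members fell than in BxPC3 on the deposited scale and with equal sums, TMM and DESeq2 factors, but not with equal ERCC totals, where 52 fell in MiaPaCa2 and 50 in BxPC3. On the deposited scale 15 members fell and 14 were called higher, whereas 19.8% of all tested genes were called lower and 36.5% higher. All 15 that fell had also fallen in BxPC3: CCNF, CDC25C, AURKA, INCENP, BUB1B, ESPL1, CENPA, CENPI, KIF14, KIF18A, KIF18B, KIF20B, KIFC1, ASPM and NCAPH. Of all tested genes, 12.7% were called lower in both lines. The members' median log2 fold change was -0.00021, against 0.19 for all genes, and 4 members fell by at least 2-fold. The THZ1 libraries lay wholly below the DMSO libraries for 21 members and wholly above for 23, against 26.2% and 47.6% of all tested genes.

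KIF18B had 29.04, 28.3 and 26.6 units in MiaPaCa2 THZ1 libraries and 156, 147 and 152 units in DMSO libraries (log2 fold change -2.40, SE 0.16, adjusted p = 7.23e-09, limma). CCNF had 18.7, 11.9 and 16.2 units with THZ1 and 72.6, 68.1 and 65.8 units with DMSO (log2 fold change -2.09, SE 0.20, adjusted p = 2.26e-07, limma). In both genes the THZ1 values were a small part of the DMSO values, with no overlap, as in BxPC3. AURKA had 59.8, 66.7 and 62.1 units with THZ1 and 159, 162 and 162 units with DMSO (log2 fold change -1.34, SE 0.12, adjusted p = 9.07e-08, limma). ASPM had 126, 155 and 146 units with THZ1 and 312, 363 and 383 units with DMSO (log2 fold change -1.30, SE 0.21, adjusted p = 6.51e-05, limma). These 4 genes, from 4 different role groups, were the members that fell by at least 2-fold in this line. CENPA fell by 0.98, KIF18A by 0.85, ESPL1 by 0.75, KIF20B by 0.73, NCAPH by 0.51 and CENPI by 0.46.

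Several regulators that fell in BxPC3 were not called in MiaPaCa2. CCNB1 had 362, 373 and 378 units with THZ1 and 392, 377 and 385 units with DMSO, groups that overlapped in range (log2 fold change -0.05, SE 0.09, adjusted p = 0.646, limma). PLK1 had 163, 147 and 152 units with THZ1 and 179, 168 and 162 units with DMSO (log2 fold change -0.14, adjusted p = 0.178, limma). CDC25B had 345, 316 and 324 units with THZ1 and 292, 281 and 278 units with DMSO (log2 fold change 0.21, adjusted p = 0.130, limma). The CDC25B groups did not overlap, yet the adjusted p missed the threshold, and its sign turned at equal sums (-0.44) and ERCC totals (-1.08). Not called were also CDK1, with 98.6, 106 and 110 units with THZ1 and 100, 104 and 108 units with DMSO, and MKI67, with 1196, 1196 and 1255 units with THZ1 and 1354, 1289 and 1365 units with DMSO.

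TOP2A and CDC20 were called in opposite directions in the 2 lines, as were 1.29% of all tested genes. In MiaPaCa2 TOP2A had 917, 965 and 1004 units with THZ1 and 781, 774 and 786 units with DMSO (log2 fold change 0.30, SE 0.07, adjusted p = 2.21e-03, limma), but -0.35 at equal sums and -0.99 at equal ERCC totals. CDC20 was at 0.45 on the deposited scale and at -0.19 and -0.84 on those scales. The opposite directions therefore held on the deposited scale and not on the scales of equal sums and ERCC totals.

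The members called higher in MiaPaCa2 included CCNB2, with 155, 154 and 152 units with THZ1 and 94.1, 88.7 and 89.5 units with DMSO (log2 fold change 0.75, SE 0.07, adjusted p = 2.93e-07, limma; 0.53 with TMM factors, 0.11 at equal sums, -0.53 at equal ERCC totals). PTTG1 had 225, 211 and 229 units with THZ1 and 125, 123 and 131 units with DMSO (log2 fold change 0.81, SE 0.21, adjusted p = 3.71e-03, limma; 0.59 with TMM factors, 0.16 at equal sums, -0.48 at equal ERCC totals). FOXM1 had 174, 172 and 175 units with THZ1 and 120, 114 and 117 units with DMSO (log2 fold change 0.57, SE 0.11, adjusted p = 2.87e-04, limma; 0.35 with TMM factors, -0.08 at equal sums, -0.72 at equal ERCC totals). THZ1 values of all 3 genes lay above every DMSO value on the deposited scale. With TMM factors 6 members stayed called higher in MiaPaCa2: CCNB2, CDC20, FOXM1, KIF4A, PTTG1 and UBE2C, the last an ubiquitin-conjugating enzyme of the anaphase-promoting complex. PRC1 had 146, 149 and 146 units with THZ1 and 97.9, 99.5 and 97.5 units with DMSO, at 0.58 on the deposited scale (adjusted p = 2.47e-03, limma) and -0.07 and -0.71 at equal sums and ERCC totals. SMC2 had 106, 118 and 125 units with THZ1 and 77.0, 82.0 and 80.7 units with DMSO, at 0.53 on the deposited scale (adjusted p = 6.90e-04, limma) and -0.11 and -0.75 on those scales. BIRC5 had 48.0, 46.6 and 50.6 units with THZ1 and 38.1, 30.9 and 39.4 units with DMSO and was not called (log2 fold change 0.42, adjusted p = 0.0564, limma).

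In PANC1 no member was called in either direction on the deposited scale by limma, where 0.228% of all tested genes were called lower and 0.274% higher. At an unadjusted p below 0.05 there were 9 members, edgeR called 0 and DESeq2 called 1, KIF18B, lower. Shares of all tested genes by these measures are not given here, so these counts are not read as a result about the members. Without DMSO replicate 1, 2 members were called higher and 1 lower, against 5.63% and 1.35% of all tested genes. The members' median log2 fold change was 0.076 and that of all genes -0.071, and without that library they were -0.053 and 0.024, so 1 library decided on which side of all genes the members lay. The groups overlapped for 44 of the 52 members, and the THZ1 libraries lay wholly above for 4 and wholly below for 4, against 8.34% and 8.73% of all tested genes.

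The individual values show how much PANC1 DMSO replicate 1 set the spread. KIF18B had 55.9, 50.9 and 51.3 units in PANC1 THZ1 libraries, against 121, 72.8 and 63.4 units in PANC1 DMSO libraries, where replicate 1 is the highest (log2 fold change -0.64, SE 0.16, adjusted p = 0.0743, limma). Without that library it was called lower at -0.36 (adjusted p = 0.0105, limma), the same direction as in the other lines and smaller in size. CCNF had 50.4, 48.5 and 48.7 units with THZ1 and 110, 59.6 and 53.0 units with DMSO (log2 fold change -0.51, SE 0.20, adjusted p = 0.169, limma), and without DMSO replicate 1 it was at -0.19 (adjusted p = 0.349, limma). For both genes the THZ1 libraries lay below all DMSO libraries. AURKA had 101, 101 and 101 units with THZ1 and 76.2, 110 and 115 units with DMSO, and the groups overlapped (log2 fold change 0.027, adjusted p = 0.876, limma; -0.15 without DMSO replicate 1, adjusted p = 0.160).

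PTTG1 had 93.6, 78.3 and 88.0 units in PANC1 THZ1 libraries and 164, 73.6 and 69.1 units in DMSO libraries. Its log2 fold change was -0.12 with all libraries (adjusted p = 0.723, limma) and 0.27 without DMSO replicate 1 (adjusted p = 0.0160, limma), so 1 library decided its sign. PRC1 had 150, 154 and 153 units with THZ1 and 77.8, 133 and 137 units with DMSO, at 0.43 with all libraries (adjusted p = 0.127, limma) and 0.17 without DMSO replicate 1 (adjusted p = 0.0321, limma). CCNB1, at 158, 152 and 159 units with THZ1 and 119, 159 and 158 units with DMSO, CDK1, at 83.8, 92.0 and 86.2 units with THZ1 and 46.1, 83.0 and 97.4 units with DMSO, and MKI67, at 759, 872 and 776 units with THZ1 and 562, 851 and 867 units with DMSO, overlapped between groups. In all 3 the lowest value was DMSO replicate 1, without which the log2 fold changes were -0.017, -0.043 and -0.10, none called. ASPM had 45.8, 88.4 and 57.2 units with THZ1 and 51.1, 63.5 and 94.3 units with DMSO, and the groups overlapped; its log2 fold change without DMSO replicate 1 was -0.33 (adjusted p = 0.293, limma). CCNB2 had 55.9, 57.1 and 57.7 units with THZ1 and 53.8, 50.5 and 55.1 units with DMSO; the groups did not overlap, but the log2 fold change of 0.10 was not called (SE 0.07, adjusted p = 0.402, limma). Without DMSO replicate 2, PRC1 was called higher and KIF18B lower, against 3.33% and 2.26% of all tested genes. Without DMSO replicate 3, which leaves replicate 1 as 1 of 2, 10 members were called higher and 5 lower, against 10.5% and 11.3% of all tested genes.

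Taken as a sum over the 52 genes, mitosis mRNA made up 0.384% ± 0.00532 of endogenous reads in BxPC3 THZ1 libraries and 0.757% ± 0.0149 in BxPC3 DMSO libraries (SD, n = 3 each). In MiaPaCa2 it was 0.806% ± 0.0247 with THZ1 and 1.22% ± 0.0169 with DMSO, and in PANC1 0.767% ± 0.0430 with THZ1 and 0.752% ± 0.168 with DMSO (SD, n = 3 each). In PANC1 DMSO replicate 1 the share was 0.560%, the lowest of the PANC1 libraries, and the other 2 DMSO libraries, at 0.822% and 0.874%, averaged 0.848%, above each THZ1 library. Which PANC1 group had the higher share was thus decided by that 1 library. On the deposited scale the same sums were 5139 ± 23.2 units with THZ1 and 6098 ± 87.9 units with DMSO in BxPC3, and 10622 ± 265 units with THZ1 and 10208 ± 158 units with DMSO in MiaPaCa2 (SD, n = 3 each). As a share of reads the sum was thus lower with THZ1 in MiaPaCa2, and in deposited units it was not.

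The scale on which libraries are compared changed the sign for part of the members. Members called lower numbered 50 in BxPC3, 52 in MiaPaCa2 and 6 in PANC1 when libraries were set to equal ERCC totals, with no member called higher, against 59.1%, 73.9% and 18.4% of all tested genes called lower and 1.28%, 1.36% and 0.0323% called higher on that scale. With equal sums they numbered 44, 32 and 1, again with no member called higher, against 43.1%, 43.2% and 1.05% of all tested genes called lower and 9.24%, 9.37% and 0.0849% called higher. With TMM factors 33 fell and 0 were called higher in BxPC3, against 28.1% and 25.9% of all tested genes. In MiaPaCa2 19 fell and 6 were called higher with those factors, against 25.9% and 26.0% of all tested genes. Every one of the 29 falls of BxPC3 and the 15 of MiaPaCa2 was also called with ERCC totals, equal sums, TMM and DESeq2 factors. Those scalings moved the median of all tested genes down in both lines. They could therefore hardly remove a fall, and keeping the calls is not a check of them. Equal medians moved that median up, and there 27 of the 29 and all 15 were called. The median over all tested genes moved with the scale as well: in BxPC3 it was 0.25 on the deposited scale, 0.30 with equal medians, 0.01 with TMM factors and -0.64 with ERCC totals. Relative to that median, the members' median lay 0.72 to 1.02 log2 units lower in BxPC3 and 0.18 to 0.44 lower in MiaPaCa2 over the 6 scales, and 0.11 to 0.16 higher in PANC1. Without PANC1 DMSO replicate 1 it lay at -0.077 relative to all genes in PANC1 on the deposited scale, so the direction in PANC1 rests on that library.

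**Figure D4:**
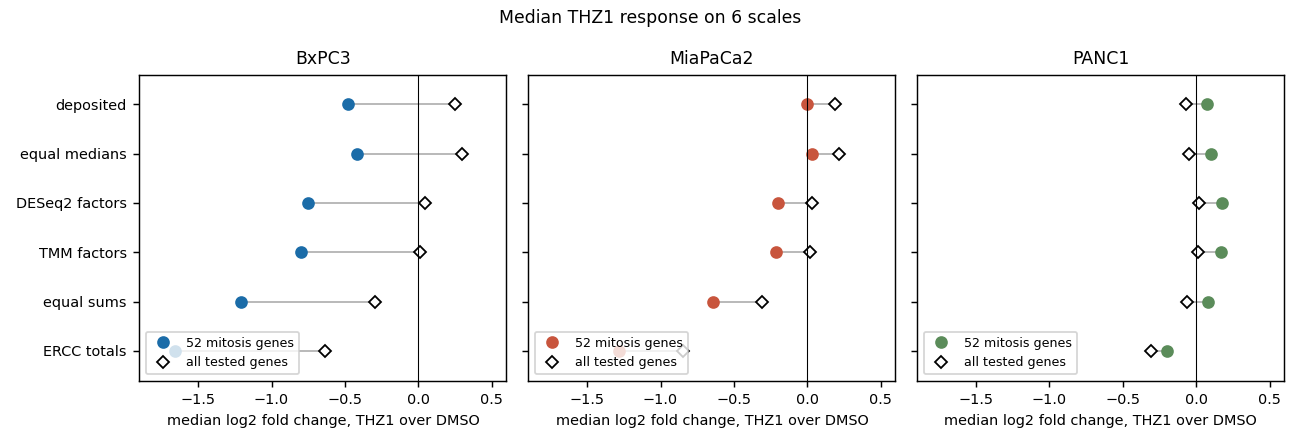
Median log2 fold change of THZ1 over DMSO (x axis) of the 52 mitosis genes (filled circles) and of all tested genes (open diamonds) on 6 ways of scaling the libraries (rows), in each line. The filled circle lies left of the diamond on all 6 scales in BxPC3 and MiaPaCa2 and right of it on all 6 in PANC1 (left of it on the deposited scale when PANC1 DMSO replicate 1 is left out, not drawn). Relative to the deposited scale, both move left with ERCC totals in every line, and with equal sums in BxPC3 and MiaPaCa2 but not in PANC1.

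The responses of the lines were then compared with each other in the same fit. The response of MiaPaCa2 was higher than that of BxPC3 for 15 members and lower for 0, where 6.14% and 7.66% of all tested genes differed in these directions. The largest differences were in CDC25B (1.10, SE 0.16, adjusted p = 2.62e-04, limma) and CENPI (1.03, SE 0.22, adjusted p = 4.82e-03, limma). CCNB1 differed by 0.79 (adjusted p = 4.90e-04, limma), PLK1 by 0.72 (adjusted p = 9.11e-04, limma) and TOP2A by 0.69 (adjusted p = 3.20e-04, limma). Without PANC1 DMSO replicate 1, which enters only through the shared estimate of spread, 35 members were higher and 1 lower, against 14.9% and 20.9% of all tested genes. On the ERCC scale 2 did, CDC25B and CDC20, both higher in MiaPaCa2, where 2.49% of all tested genes were higher and 5.28% lower. KIF18B, CCNF, AURKA and ASPM were not among the 15. That a p misses the threshold does not show that both lines responded alike in those 4 genes.

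The response of PANC1 was higher than that of BxPC3 for 27 members and lower for 3, against 11.9% and 30.8% of all tested genes. By size the first were CCNF (1.77, SE 0.28, adjusted p = 1.23e-04, limma), KIF18B (1.71, SE 0.23, adjusted p = 2.86e-05, limma), CENPI (1.60, SE 0.22, adjusted p = 4.04e-05, limma) and AURKA (1.60, SE 0.16, adjusted p = 2.94e-06, limma). The 3 lower ones were BIRC5 (-0.65), SMC2 (-0.41) and KIF4A (-0.24), and the signs of all 3 turned at equal sums (0.066, 0.32 and 0.49) and ERCC totals (0.22, 0.49 and 0.66), that of KIF4A also with TMM and DESeq2 factors. Without PANC1 DMSO replicate 1 the response of PANC1 was higher for 31 members and lower for 10, against 17.0% and 39.8% of all tested genes, with CCNF at 2.09, KIF18B at 1.98, CENPI at 1.34 and AURKA at 1.41. Set against MiaPaCa2, the PANC1 response was higher for 11 members and lower for 7, with 11.6% and 27.4% of all tested genes in these directions. KIF18B (1.76), CCNF (1.59), AURKA (1.37) and ASPM (1.17) led the higher ones, and PTTG1 (-0.93), FOXM1 (-0.70) and CCNB2 (-0.65) the lower ones. On the ERCC scale those 3 were at 0.08, 0.31 and 0.35. Without PANC1 DMSO replicate 1 the PANC1 response was higher than that of MiaPaCa2 for 16 members and lower for 16, against 17.6% and 35.9% of all tested genes. The 3 comparisons share libraries with one another and with the within-line tests, so their values are given side by side and not as separate support.

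Across the 52 genes the log2 fold changes of MiaPaCa2 and BxPC3 had a Pearson r of 0.890 and a Spearman rho of 0.868, and across all tested genes 0.771 and 0.773. For PANC1 and BxPC3 the members gave 0.540 and 0.449, and all tested genes 0.337 and 0.356. These are correlations across genes, which are not independent replicates and share libraries, depth and scale.

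**Figure D5:**
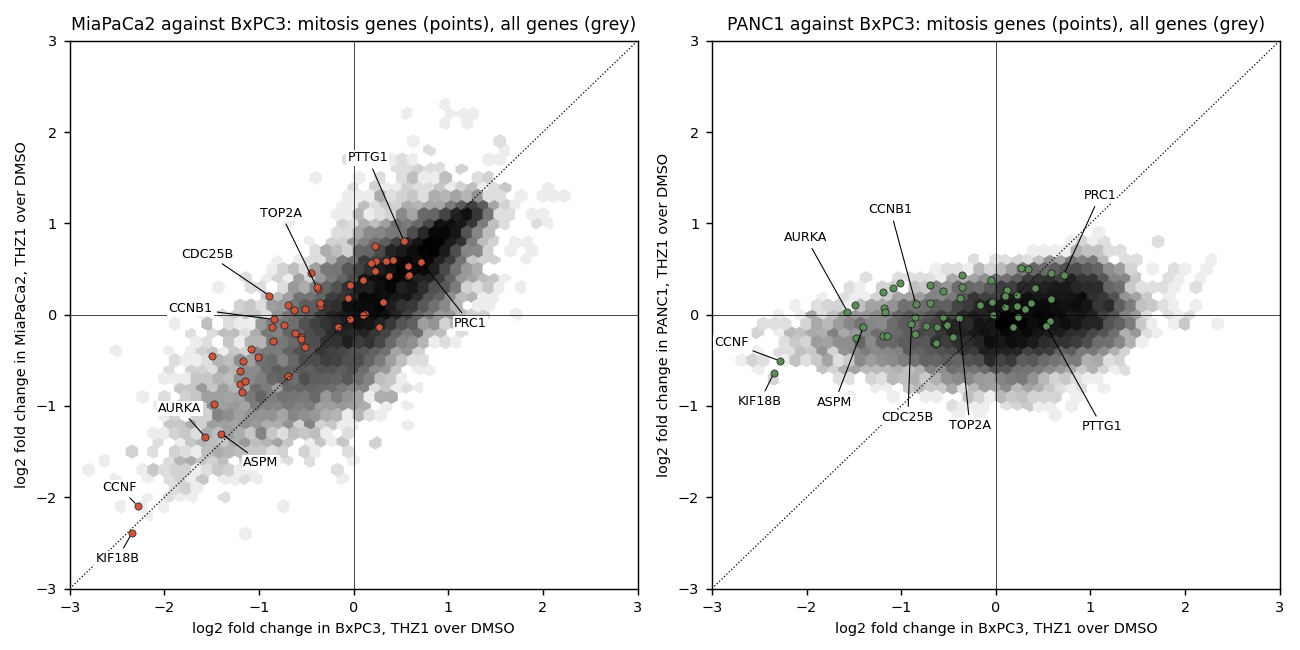
Log2 fold change of THZ1 over DMSO in MiaPaCa2 (left) or PANC1 (right) on the y axis against BxPC3 on the x axis, deposited scale, with mitosis genes as points over the density of all tested genes within the axes (grey). KIF18B and CCNF lie near the diagonal on the left, and CDC25B, CCNB1 and TOP2A above it. On the right the points span a narrower range on the y axis than on the x axis and rise slightly, with KIF18B and CCNF lowest.

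In the cultures given DMSO for 6 h, levels of mitosis genes differed between the lines. MiaPaCa2 had higher levels than BxPC3 for 37 members and lower levels for 3, against 37.5% and 25.1% of all tested genes. ASPM stood furthest apart, with the 312 to 383 units given above in MiaPaCa2 DMSO and 70.1 to 82.9 units in BxPC3 DMSO, a difference of 2.22 log2 units (SE 0.21, adjusted p = 8.35e-08, limma). NEK2 (2.18, adjusted p = 3.66e-10), CENPF (1.96, adjusted p = 5.40e-12) and ECT2, an exchange factor of cytokinesis (1.93, adjusted p = 9.60e-06, all limma), followed by size. CCNB1 (1.47), CENPA (1.23) and TOP2A (1.17) were higher in MiaPaCa2 as well. The 3 lower ones were INCENP (-0.20, but 0.18 with equal ERCC totals), CCNF (-0.61) and CDC25B (-0.82). PANC1 had higher levels than BxPC3 for 13 members and lower for 15, against 33.7% and 25.4% of all tested genes. Without PANC1 DMSO replicate 1 it had higher levels for 23 and lower for 19, against 37.1% and 33.2% of all tested genes, and the sign of KIF18B turned to -0.21. PANC1 had lower levels than MiaPaCa2 for 40 members and higher for 2, ESPL1 and TPX2 (both of opposite sign with equal ERCC totals, at -0.074 and -0.020), against 32.8% and 28.0% of all tested genes. Without that library PANC1 had lower levels for 45 and higher for 4, against 42.0% and 29.6% of all tested genes. For BIRC5 and CCNF the sign of PANC1 minus MiaPaCa2 turned to -0.26 and -0.29 without that library, and neither was called in the full set. With all libraries, PRC1 was not called between any pair of lines. The order of DMSO levels was therefore MiaPaCa2 highest for most members, with BxPC3 and PANC1 without a common order.

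The members' median gene span in GENCODE v29 was 30735 bases, against 29796 bases for 12742 tested genes with an entry, with a median of 18 exons against 9. Across the 52 members, span and log2 fold change had a Spearman rho of -0.07 in BxPC3, -0.29 in MiaPaCa2 and 0.15 in PANC1, and across the 12742 genes -0.06, -0.18 and 0.14.

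Other genes of the cell cycle, listed by role and with earlier results of these data known, give the setting of these members. Their counts stand against the shares of all tested genes given above, 18.9% lower and 40.0% higher in BxPC3 and 19.8% lower and 36.5% higher in MiaPaCa2. Among 71 tested other mitosis genes, 30 fell (42.3%) and 17 were called higher (23.9%) in BxPC3, 21 fell (29.6%) and 19 were called higher (26.8%) in MiaPaCa2, and 0 were called in PANC1. KNSTRN, of the kinetochore and spindle, fell with log2 fold changes of -2.30 in BxPC3 and -1.27 in MiaPaCa2, and PSRC1, a spindle protein, fell at -2.03 and -1.24. The kinetochore gene CENPW was at 1.18 and 1.11, and CKS1B, a CDK-binding subunit, at 0.77 and 0.81 on the deposited scale; on the ERCC scale no gene of any of these lists was called higher. Among 21 cell cycle transcription regulators, 9 fell (42.9%) and 5 were called higher (23.8%) in BxPC3, and 8 fell (38.1%) and 4 were called higher (19.05%) in MiaPaCa2. The repressor E2F8 fell at -1.74 in BxPC3 and -2.05 in MiaPaCa2, and E2F2, an activator, at -0.50 and -1.35, while MYBL2 (B-MYB) was at 0.96 and 0.88 and TFDP1, a dimer partner of E2F factors, at 0.63 and 0.64 on the deposited scale.

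Of 46 S phase genes, 11 fell (23.9%) and 24 were called higher (52.2%) in BxPC3, and 9 fell (19.6%) and 24 were called higher (52.2%) in MiaPaCa2 on the deposited scale, so their falls were near the share of all tested genes. Their medians were 0.42 and 0.37 against the mitosis genes' -0.48 and -0.00021; on the ERCC scale 37 (80.4%) and 42 (91.3%) fell, against 59.1% and 73.9% of all tested genes, with medians of -0.74 and -0.91. GINS1, of the replicative helicase, fell at -1.17 in BxPC3 and -0.77 in MiaPaCa2, and the chromatin assembly gene CHAF1A at -1.11 and -0.70. TYMS, thymidylate synthase, was at 0.97 and 0.92, and RPA1, which coats single-stranded DNA, at 0.88 and 0.80 on the deposited scale. In PANC1, 1 of these genes fell. Of 15 genes of the anaphase-promoting complex and its regulators, 2 fell (13.3%) and 6 were called higher (40.0%) in BxPC3, 2 fell (13.3%) and 7 were called higher (46.7%) in MiaPaCa2, and in PANC1 1 was called higher, the subunit ANAPC5 (0.29, adjusted p = 0.0499, limma). FZR1, the activator CDH1 of late mitosis, fell at -1.21 and -1.07, the inhibitor FBXO5 fell at -1.27 in MiaPaCa2, and ANAPC11, the RING subunit, was at 1.15 and 0.94 on the deposited scale. Among 14 other condensin and cohesin genes, 4 fell (28.6%) and 5 were called higher (35.7%) in BxPC3, 2 fell (14.3%) and 6 were called higher (42.9%) in MiaPaCa2, and 0 were called in PANC1. The cohesin loader gene MAU2 fell at -1.55 and -2.26 and the release factor gene WAPAL at -1.08 and -1.18, while the condensin II gene NCAPG2 was at 0.95 and 0.56 and the cohesin kleisin RAD21 at 0.69 and 0.68 on the deposited scale. Among the 3 THZ1 target kinases, CDK7 fell at -0.43 in BxPC3 and was at 0.016 in MiaPaCa2 (adjusted p = 0.937, limma), CDK12 fell at -0.25 and -0.40, and CDK13 was not called in either line.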

How the data were processed

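Poly(A) RNA of 18 libraries was sequenced. Reads were aligned with STAR to hg19, per the submitters' processing notes; these name neither a counter nor an annotation. Each value of the deposited signal table is a whole read count per gene divided by 1 whole number per library, chosen by the authors on a basis not given in the sources used here; counts recovered with that divisor were whole within 0.000112 of a read for every value (tolerance 0.001; smallest count 1). ERCC reads came in 38 rows of the table.

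Values were multiplied by 17.7 in all libraries and fitted as log2(value + 1) with limma 3.58.1 (trend, 6 group means, 12 residual degrees of freedom) for the 15354 genes at 1 or more in at least 3 libraries, with Benjamini-Hochberg adjustment over all of them and a threshold of 0.05. A fold change on this scale understates changes of low genes. P-values measure the spread between these libraries, estimated over all 6 groups. PANC1 DMSO replicate 1 therefore also enters the SE of the BxPC3 and MiaPaCa2 tests. Other scalings, filters, pseudocounts, edgeR 4.0.16 and DESeq2 1.42.0 on the recovered reads, and leaving out each library were alternatives. The fit was tested on simulated data.

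Members and lists were chosen with earlier results of these data known. Values in every library were given for the 4 lowest and 2 highest called members of each line, the 4 smallest p in each difference of responses, and CCNB1, CDK1, PLK1, AURKA, FOXM1, MKI67, TOP2A and BIRC5; for each other list the 2 genes with the lowest and the 2 with the highest mean fold change were named. Replicate numbers were shared between THZ1 and DMSO groups, but same-numbered libraries did not deviate together in every pair (correlations of -0.03 to 0.45), so no pairing was used. In PANC1 the same-numbered libraries had correlations of 0.45 (replicate 1), 0.30 (replicate 2) and -0.03 (replicate 3), so pairing within that line is not excluded. Promoters and motifs came from RefSeq (GRCh38.p14), a build other than that of the alignment, and gene spans from GENCODE v29. Markers and promoters without an entry were not analysed here.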

Additional observations from a re-analysis of the deposited data

Results flagged for a closer look

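For 35 of the 52 mitosis genes a test of the difference itself, in the fit over all genes with limma and an adjusted p below 0.05, found that the THZ1 response was not the same in 2 of the lines. Each gene is given once, with the pair of lines in which its p was smallest, as the log2 response of the first line minus that of the second on the deposited scale. Of all tested genes, 11.9% were higher and 30.8% lower for PANC1 minus BxPC3. For PANC1 minus MiaPaCa2 they were 11.6% and 27.4%, and for MiaPaCa2 minus BxPC3 6.14% and 7.66%. The share of all tested genes differing in any pair was not computed, so the 35 cannot be set against it. The response of PANC1 exceeded that of BxPC3 for CCNF (1.77), CENPI (1.60), AURKA (1.60), BUB1B (1.44), TTK (1.37), CCNA2 (1.36), ASPM (1.27), KIF18A (1.25), CENPA (1.23), NCAPH (1.20), KIF20A (1.02), CCNB1 (0.97), ESPL1 (0.97), KIF20B (0.92), CDC25C (0.82), KIF14 (0.82), DLGAP5 (0.79), INCENP (0.52), CENPE (0.48) and KIFC1 (0.40). It was below that of BxPC3 for BIRC5 (-0.65) and SMC2 (-0.41), both of opposite sign with equal sums and ERCC totals. The response of MiaPaCa2 exceeded that of BxPC3 for CDC25B (1.10), CDC20 (0.90), PLK1 (0.72), TOP2A (0.69), NEK2 (0.66), HMMR (0.63) and CENPF (0.57). Of these, only CDC25B and CDC20 kept the call with equal ERCC totals. The response of PANC1 exceeded that of MiaPaCa2 for KIF18B (1.76). It was below that of MiaPaCa2 for PTTG1 (-0.93), FOXM1 (-0.70), CCNB2 (-0.65), UBE2C (-0.61) and KIF4A (-0.30), and the sign of all 5 was positive with equal ERCC totals. Comparisons with PANC1 rest in part on DMSO replicate 1, which stands apart from its group.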

How the results depend on the processing

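On the deposited scale 29 members fell and 9 were called higher in BxPC3, 15 and 14 in MiaPaCa2, and 0 and 0 in PANC1. Members called lower in BxPC3 numbered 50 with equal ERCC totals and 44 with equal sums, in MiaPaCa2 52 and 32, and in PANC1 6 and 1, and also 1 in the deposited unit and 1 with DESeq2. Members called higher in BxPC3 numbered 0 with ERCC totals, equal sums, TMM factors, DESeq2 factors and edgeR with TMM, 1 with DESeq2 and 15 in a fit of the compared groups alone. In MiaPaCa2 they numbered 0 with ERCC totals and equal sums, 6 with TMM factors, DESeq2 factors and edgeR with TMM, 7 with DESeq2 and 22 in a fit of the compared groups alone. Members whose responses differed between MiaPaCa2 and BxPC3 numbered 15, but 2 with ERCC totals and 37 with the compared groups alone. Between PANC1 and MiaPaCa2 they numbered 18, but 42 with ERCC totals and 32 with equal sums. All tested genes shifted too in PANC1 minus MiaPaCa2, with 1775 of 15354 higher and 4203 lower on the deposited scale. With ERCC totals these were 6481 and 239 of 15498, and with equal sums 4697 and 764 of 15317. DMSO levels of PANC1 and BxPC3 differed for 28 members, but 17 with ERCC totals and 15 with the compared groups alone. Among all tested genes, 5171 of 15354 were higher and 3900 lower in PANC1 on the deposited scale. With ERCC totals these were 5289 and 3039 of 15498. Shares of all tested genes for the compared groups alone are not given here. The cause of these changes was not tested.

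Over the 18 fits that each leave out 1 library, members called lower ranged from 27 to 32 in BxPC3, from 12 to 21 in MiaPaCa2 and from 0 to 5 in PANC1, and members called higher from 5 to 14, from 12 to 19 and from 0 to 10. The 5 were reached without BxPC3 THZ1 replicate 3 and the 14 without PANC1 DMSO replicate 1. Differing responses ranged from 12 to 36 (MiaPaCa2 minus BxPC3), 24 to 41 (PANC1 minus BxPC3) and 15 to 32 (PANC1 minus MiaPaCa2), and differing DMSO levels from 37 to 46, 26 to 42 and 40 to 49 in the same order. A replicate block common to all lines was also fitted, which cannot check pairing within a line. With it, members called lower and higher numbered 29 and 9 in BxPC3, 15 and 14 in MiaPaCa2 and 0 and 0 in PANC1. Differing responses numbered 15, 30 and 19. Of the calls of described genes, only that of KIF4A in PANC1 minus BxPC3 was lost (-0.24, adjusted p = 0.0565, limma).

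Signs that turned, as log2 differences, were these. With equal ERCC totals, the THZ1 response of BxPC3 was KIF15 -0.85, PTTG1 -0.65, SMC2 -0.60, CDK1 -1.05, BUB3 -0.77, FOXM1 -0.997, CCNB2 -0.94, PRC1 -0.47, BIRC5 -0.57, TPX2 -0.96, KIF4A -0.81. The THZ1 response of MiaPaCa2 was then CDC20 -0.84, SMC4 -0.96, MAD2L1 -0.69, PTTG1 -0.48, SMC2 -0.75, CDK1 -1.27, BUB3 -0.70, FOXM1 -0.72, NUSAP1 -0.91, CCNB2 -0.53, PRC1 -0.71, TOP2A -0.99, BIRC5 -0.85, CDC25B -1.08, TPX2 -0.82, UBE2C -0.70, KIF4A -0.86. Between PANC1 and BxPC3 (PANC1 first) the response difference was SMC2 0.49, BIRC5 0.22, KIF4A 0.66. The response difference of PANC1 minus MiaPaCa2 was CDC20 0.31, PTTG1 0.078, FOXM1 0.31, CCNB2 0.35, TOP2A 0.68, UBE2C 0.39, KIF4A 0.71. For the DMSO level of MiaPaCa2 minus BxPC3 it was then INCENP 0.18. The DMSO level of PANC1 minus MiaPaCa2 was then ESPL1 -0.074, TPX2 -0.020. With equal sums, the THZ1 response of BxPC3 was KIF15 -0.41, PTTG1 -0.19, SMC2 -0.14, CDK1 -0.60, BUB3 -0.31, FOXM1 -0.54, CCNB2 -0.49, PRC1 -0.011, BIRC5 -0.13, TPX2 -0.50, KIF4A -0.35. The THZ1 response of MiaPaCa2 was then CDC20 -0.19, SMC4 -0.32, MAD2L1 -0.051, SMC2 -0.11, CDK1 -0.64, BUB3 -0.054, FOXM1 -0.079, NUSAP1 -0.27, PRC1 -0.068, TOP2A -0.35, CDC25B -0.44, TPX2 -0.17, UBE2C -0.061, KIF4A -0.22. For the response of PANC1 minus BxPC3 it was then SMC2 0.32, BIRC5 0.066, KIF4A 0.49. Between PANC1 and MiaPaCa2 (PANC1 first) the response difference was TOP2A 0.32, UBE2C 0.042, KIF4A 0.36. With TMM factors, the THZ1 response of BxPC3 was KIF15 -0.0061, CCNB2 -0.087, TPX2 -0.090. The response difference of PANC1 minus BxPC3 was KIF4A 0.17. For the response of PANC1 minus MiaPaCa2 it was then KIF4A 0.015. With DESeq2 factors, the THZ1 response of BxPC3 was CCNB2 -0.044, TPX2 -0.046. Between PANC1 and BxPC3 (PANC1 first) the response difference was KIF4A 0.13. The response difference of PANC1 minus MiaPaCa2 was KIF4A 0.0032. In the deposited unit, the response of MiaPaCa2 minus BxPC3 was CENPA -0.031. In edgeR with TMM, the THZ1 response of BxPC3 was KIF15 -0.0051, CCNB2 -0.086, TPX2 -0.091. For the response of PANC1 minus BxPC3 it was then KIF4A 0.16. Between PANC1 and MiaPaCa2 (PANC1 first) the response difference was KIF4A 0.0081. In DESeq2, the THZ1 response of BxPC3 was CCNB2 -0.042, TPX2 -0.047. The response difference of PANC1 minus BxPC3 was KIF4A 0.12. Where leaving out 1 library turned a sign, values ranged from -0.34 to 0.27 (PTTG1, THZ1 response of PANC1), from -0.21 to 0.25 (KIF18B, DMSO level of PANC1 minus BxPC3), from -0.29 to 0.23 (CCNF, DMSO level of PANC1 minus MiaPaCa2) and from -0.26 to 0.18 (BIRC5, the same comparison), each turned without PANC1 DMSO replicate 1. Of the gene-level values over the alternatives, 94 turned sign, 373 lost and 81 gained a call.

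PANC1 DMSO replicate 1 is the shallowest library and limits the precision of the PANC1 comparisons. Through the shared estimate of spread it also enters the tests of the other lines. Without it, members called lower and higher numbered 32 and 14 in BxPC3, against 29 and 9 with all libraries. In MiaPaCa2 they numbered 21 and 19, against 15 and 14. Shares of all tested genes for these 2 lines without that library are not given here.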
